A study of Mus musculus with 12 samples.

Results

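The 7 genes described here build, hold, bind or break down hyaluronan, and were followed on 12 arrays of mouse granulosa cells. Has2 makes the polymer, Tnfaip6, Ptx3, Hapln1 and Vcan bind or cross-link it, Cd44 is its cell surface receptor, and Cemip takes part in its breakdown. The genes were chosen by symbol: a probe set counted if its annotation named exactly 1 gene and that gene was one of the 7. This gave 24 of the 34945 probe sets that named 1 gene, and 7 of the 18193 genes measured. Each gene was read from the brightest of its probe sets, by mean over 12 arrays, and its other probe sets served as a check. The choice turned on single groups for 2 genes: without the bERKO hCG arrays (or the WT PMSG arrays) another Cemip probe set was brighter, and without the bERKO PMSG arrays another Hapln1 probe set was. For the other genes with several probe sets the choice was the same without any 1 group.

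The LH surge makes a preovulatory follicle change its matrix within hours. Granulosa cells, and above all the cumulus cells around the oocyte, extrude hyaluronan, which proteins tie into a soft, expanding gel that leaves the follicle with the oocyte. Tnfaip6 protein moves heavy chains of the serum protein inter-alpha-trypsin inhibitor onto hyaluronan, Ptx3 protein joins several such heavy chains, and link protein (Hapln1) locks the large proteoglycan versican (Vcan) to the polymer.

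The 4 groups of 3 arrays all came from granulosa cells cut by laser from antral follicles of 3-week-old mice, described by the submitters as preovulatory. The bERKO hCG group came from mice lacking estrogen receptor beta (bERKO) that received PMSG and then hCG, with cells taken 4 h after hCG. The WT hCG group was the same in wild-type mice, the bERKO PMSG group came from bERKO mice 48 h after PMSG alone, and the WT PMSG group from wild-type mice 48 h after PMSG alone. PMSG (pregnant mare serum gonadotropin) acts like FSH and drives follicle growth, and hCG (human chorionic gonadotropin) acts at the LH receptor. Arrays of a group are labelled biological replicates, but the number of mice behind each, the strain, and whether cumulus cells were cut with the mural granulosa cells are not stated in the sources used here. P-values therefore measure the spread between these arrays.

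Levels are given as log2(intensity + 16) after quantile normalization, so 4 is the lowest possible level, a group mean under 5 is called near the floor, and a difference of 1 is a doubling of intensity plus 16. A change was called when limma's moderated test gave an adjusted p under 0.05 over all 18193 genes (Benjamini-Hochberg, two-sided), and errors of changes are standard errors (SE). Because each array measured the RNA of many cells, more cells of a type and more RNA per cell cannot be told apart. Array medians before normalization ran from 6.02 to 7.0. The ratio of the 3' to the 5' Gapdh control signal, a sign of RNA length, was 32.2 on WT hCG replicate 1 and 23.7 on bERKO PMSG replicate 3, against 4.72 to 11.2 on the other 10 arrays, so several changes are also given without one of them. Esr2, the gene for estrogen receptor beta, read 8.13 to 8.53 in the bERKO hCG arrays against 8.68 to 9.52 in the WT hCG arrays, and 8.13 to 8.64 in the bERKO PMSG arrays against 9.01 to 10.33 in the WT PMSG arrays. These groups did not overlap, but limma called neither difference (adjusted p = 0.397 after hCG and 0.307 after PMSG), and the sources used here do not say whether the probe set lies in the deleted part. Granulosa markers averaged 11.2 to 11.5 in the bERKO hCG arrays, 12.3 to 12.7 in the WT hCG arrays, 12.22 to 12.51 in the bERKO PMSG arrays and 12.6 to 12.8 in the WT PMSG arrays, and Amh was near the floor in both WT groups.

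In bERKO granulosa cells 6 of the 7 genes were higher after hCG than after PMSG alone, by between 4.02-fold (Cd44) and 325-fold (Ptx3) on the scale of intensity plus 16. Of all genes, 7.05% were called higher in the same comparison. Hapln1 was the exception, with a change of 0.43 ± 0.44 (SE; limma adjusted p = 0.555). In WT cells the response to hCG was called for 0 of the 7 genes by limma, where 2.08% of all genes were called, although 4 of them (Has2, Tnfaip6, Ptx3 and Vcan) passed an unadjusted p of 0.05, as did 17.1% of all genes. The median change of the 7 genes was 4.99 in bERKO and 0.97 in WT, beside -0.19 and -0.08 over all genes.

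After hCG, on the probe sets used, every one of the 7 genes was higher on all 3 bERKO arrays than on all 3 WT arrays. Of all genes, 11.4% showed that arrangement in that direction. The nearest arrays were close for Tnfaip6 (13.86 against 13.71) and Vcan (14.96 against 14.87). Some other probe sets overlapped, such as one of Has2 (7.07 in bERKO against 7.13 in WT) and one of Cd44 (5.56 against 5.82). On the probe sets used, limma called 2 of the 7 differences after hCG, Hapln1 and Cemip, where 1.55% of all genes were called higher in bERKO. After PMSG alone limma called 0 of the 7 genes between bERKO and WT (0.011% of all genes were called). At an unadjusted p under 0.05 there were 2, Hapln1 higher and Cemip lower, against 9.53% of all genes. Both were read from probe sets whose choice turned on single groups. The other probe sets differed by -0.28, 0.75 and -0.56 for Hapln1 and by 0.69 and -0.05 for Cemip. The hCG response itself differed between the genotypes for 1 of the 7, Cemip, where 0.676% of all genes were called with a greater change in bERKO. The Cemip probe set used was the brightest through its bERKO hCG values, which also enter its call after hCG. On the other Cemip probe sets the responses differed by 0.54 and 2.08, called for neither. These comparisons share arrays, the bERKO hCG arrays entering 3 of them, so they are not independent of each other. Scaling moved all genes together: the median bERKO response of all genes was -0.05 in the values as deposited and -0.41 with arrays centred on their medians. Relative to that median, the 6 called responses lay between 2.17 and 8.56 in the values as deposited, against 2.20 to 8.54 after quantile normalization. Centring shifts every gene of an array alike, so its relative values are the same as in the values as deposited and are no separate check.

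**Figure D1:**
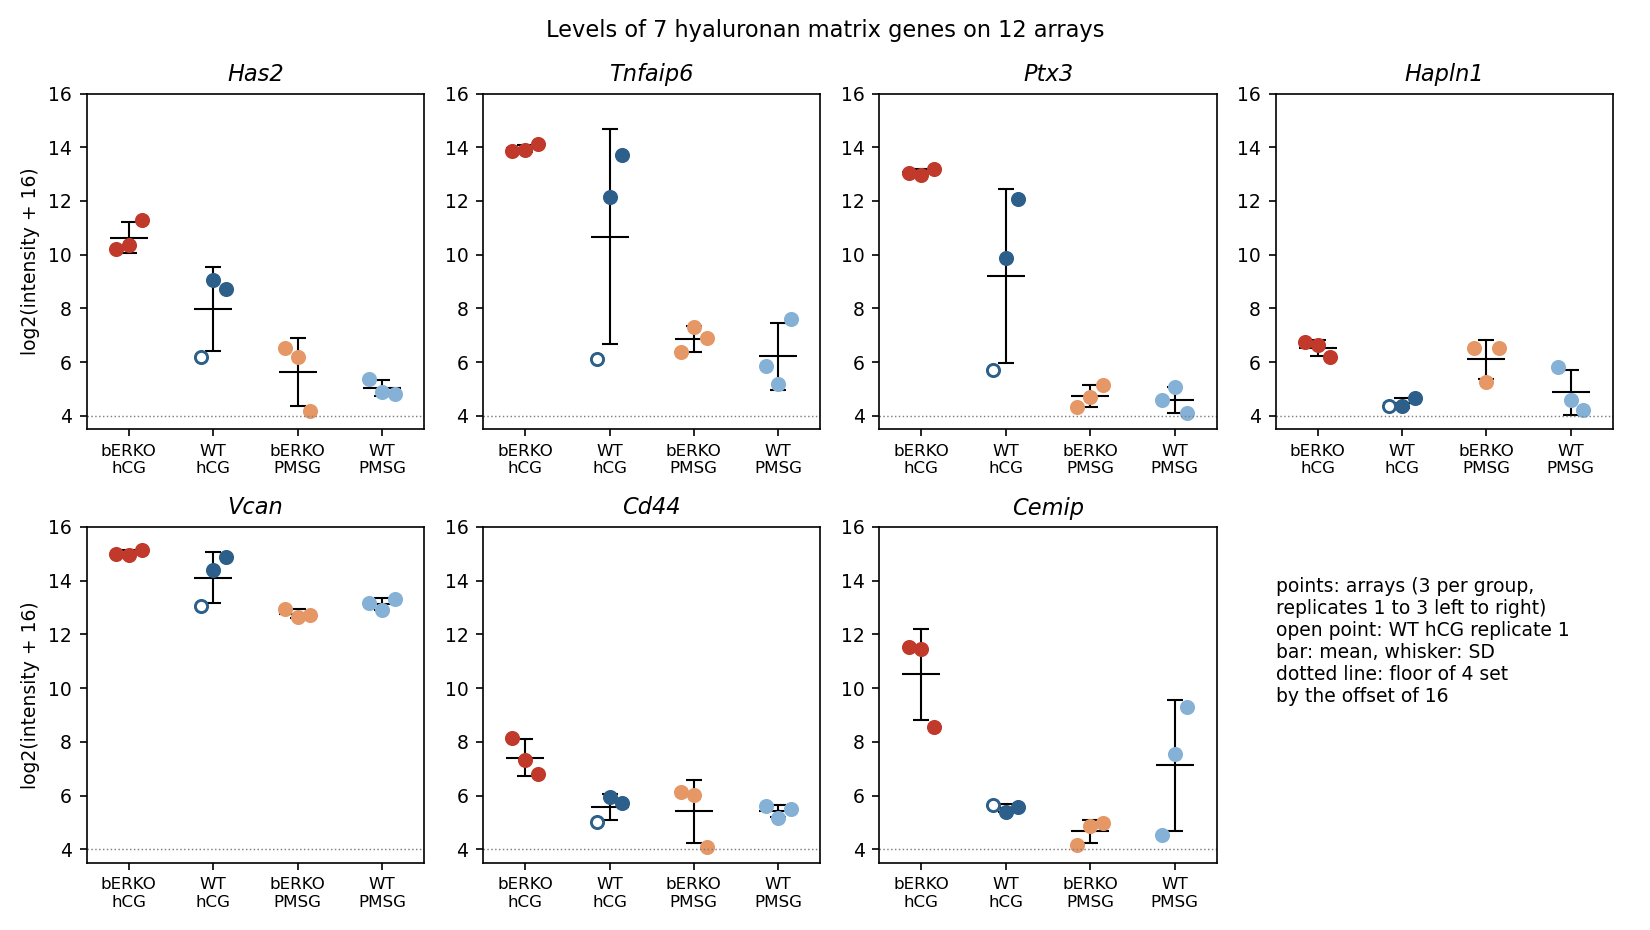
Level of each of the 7 genes (vertical axis, log2(intensity + 16)) on every array, by group; points are arrays, the bar is the group mean and the whisker the SD of 3 arrays. The bERKO hCG points lie above all WT hCG points in every panel, and the open point, WT hCG replicate 1, lies at 6.19, 6.13 and 5.71 for Has2, Tnfaip6 and Ptx3.

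Has2 is the synthase that extrudes hyaluronan at the plasma membrane of cumulus cells. It read 10.23, 10.36 and 11.30 on the bERKO hCG arrays, against 6.54, 6.19 and 4.19 on the bERKO PMSG arrays. In WT it read 6.19, 9.05 and 8.71 after hCG, against 5.38, 4.90 and 4.81 after PMSG. In both genotypes every hCG array was above every PMSG array. The hCG response was 4.99 ± 0.75 in bERKO (31.8-fold, limma adjusted p = 0.00115) and 2.95 ± 0.75 in WT (7.73-fold, adjusted p = 0.0674). Without WT hCG replicate 1 the WT response was 3.85 and was called (limma adjusted p = 0.0121). The responses differed by 2.04, with a 95% confidence interval of -0.27 to 4.35, which limma did not call (adjusted p = 0.390), and by 1.14 without WT hCG replicate 1 or 1.31 without bERKO PMSG replicate 3. Without bERKO PMSG replicate 3 the WT response of 2.95 was called as well (limma adjusted p = 0.0367), as was bERKO minus WT after hCG (2.65, adjusted p = 0.0489), which was not called over all arrays (adjusted p = 0.0815). Ordered by mean, the groups ran bERKO hCG (10.63 ± 0.59, SD, n = 3), WT hCG (7.98 ± 1.57), bERKO PMSG (5.64 ± 1.27) and WT PMSG (5.03 ± 0.31), and no array of bERKO hCG overlapped another group. WT hCG overlapped bERKO PMSG through replicate 1 alone, and the PMSG groups overlapped each other. The second, dimmer Has2 probe set rose by 2.72 in bERKO (limma adjusted p = 0.00635 over all probe sets) and changed by 1.43 in WT (adjusted p = 0.235).

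Tnfaip6 (TSG-6) is the secreted protein that transfers heavy chains onto hyaluronan. Its levels were 13.86, 13.90 and 14.11 in bERKO hCG arrays, against 6.37, 7.31 and 6.88 in bERKO PMSG arrays. In WT they were 6.13, 12.16 and 13.71 after hCG, against 5.84, 5.19 and 7.62 after PMSG. The 3 bERKO hCG arrays lay close together, while WT hCG replicate 1 stood inside the WT PMSG range and apart from the other 2 WT hCG arrays. The bERKO response was 7.10 ± 1.44 (137-fold, limma adjusted p = 0.00592). In WT the response was 4.45 ± 1.44 over 3 arrays (21.8-fold, limma adjusted p = 0.138), and leaving out WT hCG replicate 1 made it 6.72 (adjusted p = 0.00112). After hCG, bERKO minus WT was 3.29 ± 1.44 with all arrays (limma adjusted p = 0.262), against 1.02 once WT hCG replicate 1 was omitted. The responses differed by 2.65 (limma adjusted p = 0.580), and by 0.38 without that array. Tnfaip6 had a single probe set.

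Ptx3, the long pentraxin that cross-links heavy chains, was near the floor in both groups without hCG. After hCG it read 13.06, 12.97 and 13.19 on bERKO arrays, against 5.71, 9.87 and 12.06 on WT arrays. After PMSG alone it read 4.34, 4.71 and 5.14 on bERKO arrays, against 4.61, 5.09 and 4.10 on WT arrays. The bERKO hCG values were close together, and the WT hCG values were spread widely with replicate 1 lowest, above the WT PMSG arrays. The bERKO response was 8.35 ± 1.13 (325-fold, limma adjusted p = 0.000706), and as both PMSG groups were near the floor the fold depends on the offset of 16. The WT response was 4.61 ± 1.13 (limma adjusted p = 0.0622), and it was 6.36 with WT hCG replicate 1 left out (adjusted p = 0.000435). The responses differed by 3.73 (95% confidence interval 0.24 to 7.23), not called by limma (adjusted p = 0.295), and by 1.98 once WT hCG replicate 1 was omitted. After hCG, bERKO minus WT was 3.87 ± 1.13 (limma adjusted p = 0.0919), and 2.11 without that array. A second Ptx3 probe set, under 6 on every array, changed by 0.71 in bERKO and -0.52 in WT and was called in neither.

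The sequences upstream of Tnfaip6 and Ptx3 are shown because these 2 genes had the largest changes with hCG in bERKO among the 7. They are the 250 bases before the annotated start site on the gene's own strand, from RefSeq on build GRCm38.p6, at chr2:52037863-52038112 (plus strand) and chr3:66219637-66219886 (plus strand). Capitals mark motifs found by script on either strand, and positions count back from the start site, with -1 the last base shown.
Tnfaip6: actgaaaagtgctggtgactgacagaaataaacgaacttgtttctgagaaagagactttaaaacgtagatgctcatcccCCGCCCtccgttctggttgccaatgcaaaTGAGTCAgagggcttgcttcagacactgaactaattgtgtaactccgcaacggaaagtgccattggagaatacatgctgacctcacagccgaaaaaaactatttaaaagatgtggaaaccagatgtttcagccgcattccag
Ptx3: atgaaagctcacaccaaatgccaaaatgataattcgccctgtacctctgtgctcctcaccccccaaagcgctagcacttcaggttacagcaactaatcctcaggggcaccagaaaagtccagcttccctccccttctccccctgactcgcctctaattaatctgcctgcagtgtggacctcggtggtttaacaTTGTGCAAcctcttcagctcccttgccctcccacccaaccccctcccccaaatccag
In Tnfaip6 the capitals at -142 are an AP-1 site (TGANTCA), present in 7.81% of the 32851 promoters of the table, and those at -171 a GC box (GGGCGG, on the opposite strand), present in 35.7%. In Ptx3 the capitals at -57 are a C/EBP motif (TTGCNNAA, on the opposite strand), present in 10.8%. None of the 6 promoters found for these genes held a full CRE (TGACGTCA, 1.79% of all promoters), the palindromic estrogen response element (0.07%) or the progesterone response element (0.0091%) within 250 bases before and 50 after the start site. Hapln1 held the half-site CGTCA at 29 bases after the start, as 20.8% of promoters held one somewhere. Vcan and Cd44 held GC boxes, as did Tnfaip6 and Cemip, and Has2 had no entry in the table used. A match describes the letters alone.

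Hapln1 encodes the link protein that ties versican to hyaluronan. It read 6.76, 6.65 and 6.18 on bERKO hCG arrays, against 4.36, 4.38 and 4.68 on WT hCG arrays. After PMSG it read 6.53, 5.26 and 6.52 in bERKO, against 5.81, 4.60 and 4.20 in WT. The hCG groups were clearly apart, the PMSG groups overlapped, and both WT groups were near the floor. Hapln1 was 2.06 ± 0.44 higher in bERKO than in WT after hCG (4.16-fold on the scale with the offset of 16, limma adjusted p = 0.0336) and 1.23 ± 0.44 higher after PMSG, which was not called (adjusted p = 0.408). The hCG response was not called in bERKO or in WT (0.43 and -0.40), and the responses differed by 0.82 (95% confidence interval -0.55 to 2.20). As WT hCG was near the floor, the size of that difference depends on the offset: with an offset of 1 it was 3.46 and not called (limma adjusted p = 0.0734). The call after hCG was lost in 9 of 22 alternatives, among them each omission of an hCG array, where the difference stayed between 1.94 and 2.23 (limma adjusted p from 0.0509 to 0.110). Of the other 3 Hapln1 probe sets, all dimmer, 1 differed by 1.05 after hCG without a call. It rose by 1.48 with hCG in bERKO (limma adjusted p = 0.0109), and the other 2 differed by 0.02 and 0.33 after hCG. After PMSG these 3 differed by -0.28, 0.75 and -0.56, so they did not share the direction of the 1.23 on the probe set used.

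Vcan encodes versican, the proteoglycan that binds hyaluronan through its head domain and lies beside Hapln1 on mouse chromosome 13 with 0 protein-coding genes between them. Its signal was strong on every array: 14.99, 14.96 and 15.15 in bERKO hCG, against 12.95, 12.64 and 12.73 in bERKO PMSG. The WT arrays read 13.05, 14.41 and 14.87 after hCG, against 13.19, 12.89 and 13.33 after PMSG. All bERKO hCG arrays were above all other arrays, and WT hCG replicate 1 lay inside the WT PMSG range. Vcan rose by 2.26 ± 0.39 with hCG in bERKO (4.79-fold, limma adjusted p = 0.00249). In WT the change was 0.97 ± 0.39 (limma adjusted p = 0.228), and leaving out WT hCG replicate 1 made it 1.5 (adjusted p = 0.0198). After hCG, bERKO minus WT was 0.92 ± 0.39 (limma adjusted p = 0.244), and 0.40 without that array. The responses differed by 1.29 (limma adjusted p = 0.298), and by 0.76 without that array. Of the 8 Vcan probe sets 7 were called higher with hCG in bERKO, with changes over all 8 from 0.48 to 5.48. The 2 largest, 5.48 and 4.76, were on probe sets with mean levels of 8.99 and 8.39, against a change of 2.26 on the probe set with the mean of 13.76. Limma called 0 of the 8 for the WT response and 0 for bERKO minus WT after hCG. Although Hapln1 and Vcan are neighbours, Pearson's r between them over the 12 arrays was 0.23, against 0.97 between Vcan and Ptx3.

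**Figure D2:**
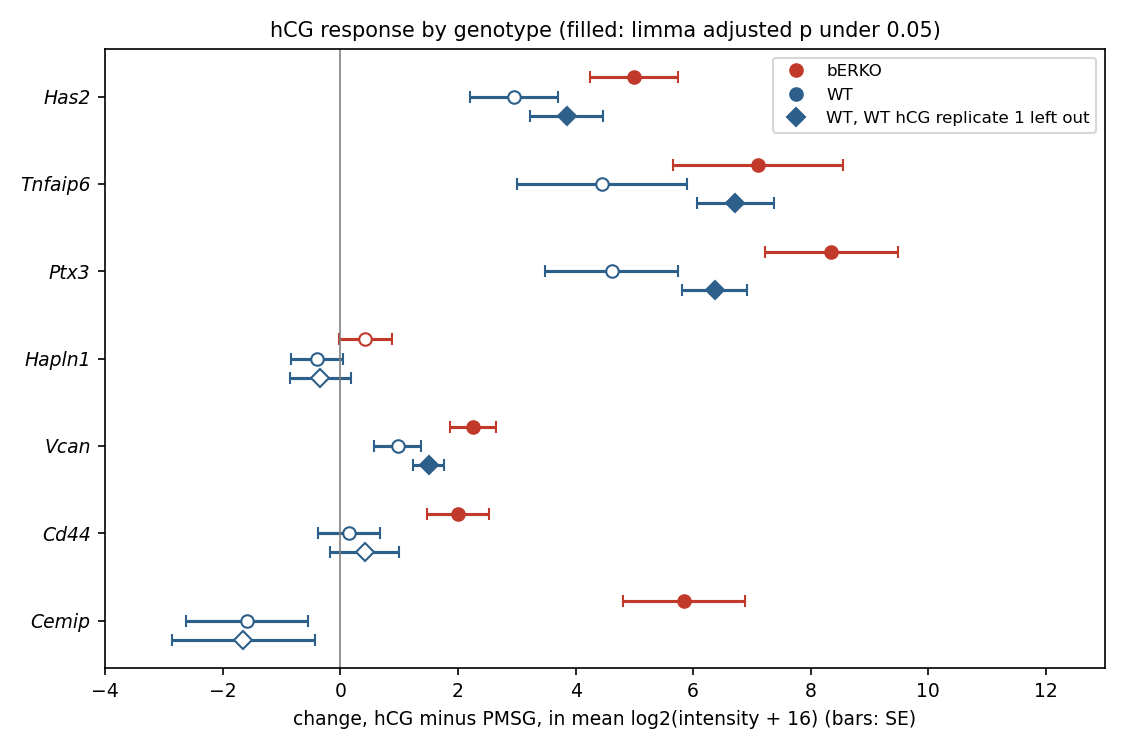
Change with hCG (horizontal axis, hCG minus PMSG in mean log2(intensity + 16)) for each gene in bERKO, in WT and in WT without WT hCG replicate 1; bars are SE from limma and filled symbols have an adjusted p under 0.05. Has2, Tnfaip6, Ptx3 and Vcan are filled in bERKO and, once WT hCG replicate 1 is left out, in WT at 3.85, 6.72, 6.36 and 1.5, while Hapln1, Cd44 and Cemip are open in WT either way.

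The reading of the WT response depended on WT hCG replicate 1, though not on it alone. With all arrays kept but centred on their medians, limma called Has2 and Ptx3 higher with hCG in WT (adjusted p = 0.0363 and 0.0389). WT hCG replicate 1 was below both other WT hCG arrays for 6 of the 7 genes (85.7%), against 32.4% of all genes and 63.2% of the 1283 genes called higher with hCG in bERKO. It lay inside the WT PMSG range for 4 of the 7 (57.1%, Tnfaip6, Hapln1, Vcan and Cemip), against 33.1% of all genes and 30.9% of those 1283. For Hapln1 and Cemip the other WT hCG arrays lay inside that range too, so replicate 1 was not apart there. Its Hapln1 level was near the floor and barely below the next array (4.36 against 4.38). With WT hCG replicate 1 left out, limma called 4 of the 7 genes higher with hCG in WT (Has2, Tnfaip6, Ptx3 and Vcan), where 1.1% of all genes were called higher. In that fit 0 of the 7 were called between bERKO and WT after hCG. Of all genes, 141 (0.775%) were then called between bERKO and WT after hCG, in place of 562. That fall was not particular to WT hCG replicate 1: without bERKO hCG replicate 1 or 2 the count was 143 or 172, without WT hCG replicate 2 it was 307, and 0 of the 7 were called in each of these fits. The high 3' to 5' Gapdh ratio stands beside this result, and its part in it was not tested.

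Cd44 is the main surface receptor for hyaluronan. It read 8.14, 7.31 and 6.80 on bERKO hCG arrays and 6.14, 6.01 and 4.07 on bERKO PMSG arrays. In WT it read 5.03, 5.96 and 5.72 after hCG and 5.60, 5.18 and 5.49 after PMSG. The bERKO hCG arrays were above all others and the other 3 groups overlapped. Cd44 rose by 2.01 ± 0.53 with hCG in bERKO (4.02-fold, limma adjusted p = 0.0214) and changed by 0.14 ± 0.53 in WT (adjusted p = 0.932). Leaving out bERKO hCG replicate 1 or 2 ended the bERKO call (limma adjusted p = 0.0849 and 0.0527). The responses differed by 1.86 (95% confidence interval 0.23 to 3.5, limma adjusted p = 0.265), and after hCG bERKO minus WT was 1.85 ± 0.53 (adjusted p = 0.0859). Without bERKO PMSG replicate 3, the lowest Cd44 array, the bERKO response was 1.34 (limma adjusted p = 0.0477), the responses differed by 1.19, and the difference of 1.85 after hCG was called (adjusted p = 0.025). A second of the 4 Cd44 probe sets rose by 2.0 in bERKO (limma adjusted p = 0.0236), another changed by 1.49 (adjusted p = 0.0554) and the dimmest by -0.13.

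Cemip, also called KIAA1199 or HYBID, is a protein known for its part in cutting long hyaluronan. It read 11.52, 11.47 and 8.55 on bERKO hCG arrays, against 5.65, 5.39 and 5.56 on WT hCG arrays. After PMSG it was near the floor in bERKO at 4.17, 4.86 and 4.97, against 4.52, 7.54 and 9.32 in WT. All bERKO hCG arrays but replicate 3 were above all others, since WT PMSG replicate 3 (9.32) exceeded bERKO hCG replicate 3 (8.55). The bERKO response was 5.84 ± 1.03 (57.4-fold, limma adjusted p = 0.0028), called under all 23 alternatives. As bERKO PMSG was near the floor, the fold depends on the offset, and with an offset of 1 the change was 7.34. In WT the change was -1.59 ± 1.03 (limma adjusted p = 0.489), and it was -2.89 without WT PMSG replicate 1 and -0.49 without WT PMSG replicate 3. The responses differed by 7.43 ± 1.46 (95% confidence interval 4.23 to 10.63, limma adjusted p = 0.0354) on this probe set, and 12 of 22 alternatives ended that call. After hCG Cemip was 4.98 ± 1.03 higher in bERKO than in WT (31.5-fold, limma adjusted p = 0.0289), a call lost in 7 of 23 alternatives, among them the omission of any 1 hCG array other than bERKO hCG replicate 3.

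The 3 Cemip probe sets differed in the size of these changes. The probe set used had the highest mean through its bERKO hCG values: over the other 9 arrays it averaged 5.78, against 6.43 for the next. The dimmer ones rose by 1.17 and 2.08 with hCG in bERKO (limma adjusted p = 0.0447 and 0.00931) and changed by 0.63 and 0.0033 in WT, so that the responses differed by 0.54 and 2.08, called for neither (adjusted p = 0.677 and 0.163). On WT PMSG replicates 2 and 3, where the brightest probe set read 7.54 and 9.32, the next read 5.82 and 6.06 and the dimmest 4.32 and 5.42, neither exceeding WT PMSG replicate 1 on the same probe set (6.11 and 5.52). After hCG, bERKO minus WT was 1.24 and 2.03 on the dimmer probe sets (limma adjusted p = 0.102 and 0.0425). All 3 probe sets were called higher with hCG in bERKO, and a negative change in WT was seen on the brightest alone.

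The region upstream of Cemip, shown because Cemip alone passed the test of the difference between responses, on 1 of its 3 probe sets, lies at chr7:84086506-84086755 (minus strand, GRCm38.p6, RefSeq), and its capitals mark GC boxes at -168 and -145.
Cemip: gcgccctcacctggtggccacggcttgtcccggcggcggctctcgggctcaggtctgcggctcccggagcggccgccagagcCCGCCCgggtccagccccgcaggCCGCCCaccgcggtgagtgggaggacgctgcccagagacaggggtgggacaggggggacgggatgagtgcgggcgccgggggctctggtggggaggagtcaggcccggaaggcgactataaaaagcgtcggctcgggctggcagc
No other motif searched was found in it.

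**Figure D3:**
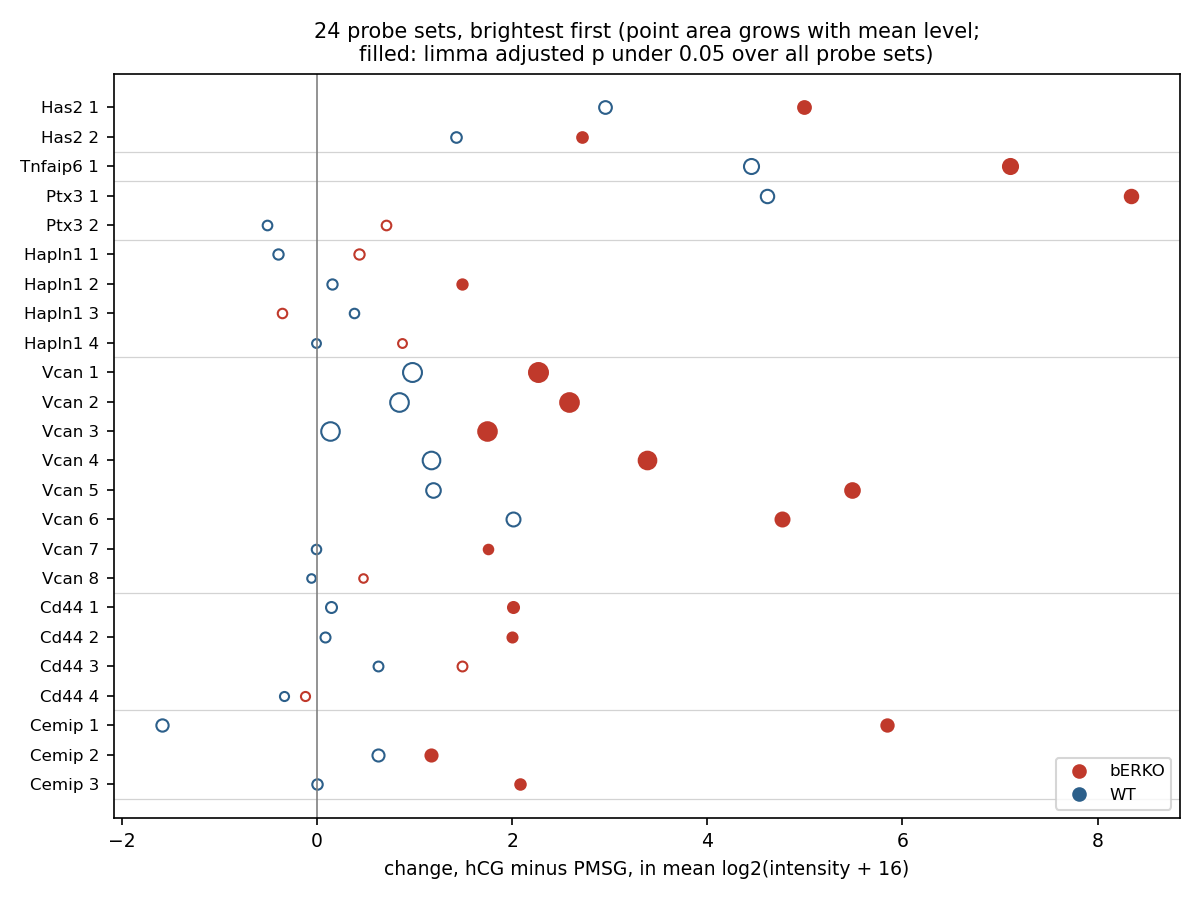
Change with hCG (horizontal axis, hCG minus PMSG in mean log2(intensity + 16)) on all 24 probe sets, brightest first within a gene, in bERKO and WT; filled points have a limma adjusted p under 0.05 over all probe sets. Filled bERKO points lie between 1.17 and 8.35, and every WT point is open.

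Markers of other cell types moved with some of these results. The mean of 15 stroma and smooth muscle markers was 8.36, 8.23 and 7.19 on bERKO hCG arrays and 6.18, 6.68 and 6.37 on WT hCG arrays. After PMSG it was 6.69, 6.01 and 7.43 in bERKO and 5.74, 6.07 and 7.71 in WT. On the probe sets used, Cemip, Cd44 and Hapln1 had the same order as these markers over the bERKO hCG arrays, highest on replicate 1 and lowest on replicate 3. Not all their other probe sets did: another of Cd44 read 6.23, 6.74 and 5.56 there, and another of Hapln1 6.49, 6.68 and 6.01. Cemip followed the order of the stroma markers over the WT PMSG arrays too, on its brightest probe set alone. On that probe set Cemip had the opposite order over the WT hCG arrays and another order over the bERKO PMSG arrays. On the probe sets used, Cd44 followed the markers over the WT hCG arrays but not over either PMSG group. Hapln1 followed them in no other group. Has2, Tnfaip6, Ptx3 and Vcan were highest on bERKO hCG replicate 3, where both stroma and endothelial markers were lowest of that group. Tnfaip6, Ptx3 and Vcan varied little over the bERKO hCG arrays (SD 0.13, 0.11 and 0.10), so their order there rests on small differences.

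The mean of 12 endothelial markers was 7.0, 7.40 and 6.61 on bERKO hCG arrays, 5.27 to 5.49 on WT hCG arrays, and 5.17 to 5.53 on bERKO PMSG arrays and 5.41 to 5.90 on WT PMSG arrays. Limma called 4 of these 12 markers higher in bERKO than in WT after hCG. The 16 leukocyte markers averaged 5.84 to 6.69 on bERKO hCG arrays, with 4 near the floor, and 5.47 to 5.61 on WT hCG arrays, with 7 near the floor and 0 called higher. Limma called 1 of the 15 stroma markers higher in bERKO after hCG, and 0 of the 12 endothelial markers were near the floor in bERKO hCG, against 2 in WT hCG. Granulosa markers moved the other way, with 5 of 11 lower in bERKO than in WT after hCG. For the hCG response in bERKO, 5 of the 12 endothelial, 2 of the 15 stroma and 2 of the 16 leukocyte markers were called higher. In the same comparison 6 of the 11 granulosa markers and 1 leukocyte marker were called lower, where 7.05% of all genes were higher and 11.9% lower. For the difference of responses 2 endothelial markers were higher and 2 granulosa markers lower. Oocyte markers averaged 6.53 to 7.99 on bERKO hCG arrays and 5.93 to 6.84 on WT hCG arrays. After PMSG they averaged 8.99 to 10.28 in bERKO and 5.71 to 8.66 in WT, so every bERKO PMSG array was above every WT array. Limma called 8 of the 13 lower with hCG in bERKO, 0 lower in WT, and 0 higher in bERKO than in WT after PMSG. The 4 cumulus markers measured averaged 7.61 to 8.27 on bERKO hCG arrays and 7.32 to 8.12 on WT hCG arrays. Limma called 0 of them between bERKO and WT after hCG, and 1 higher with hCG in bERKO. The 5 theca and interstitium markers averaged 9.66 to 9.83 on bERKO hCG arrays and 9.73 to 10.22 on WT hCG arrays, with 1 lower in bERKO. Of the erythrocyte and surface epithelium markers 0 were called in any comparison. The part of these cell types in the changes of the 7 genes was not tested.

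**Figure D4:**
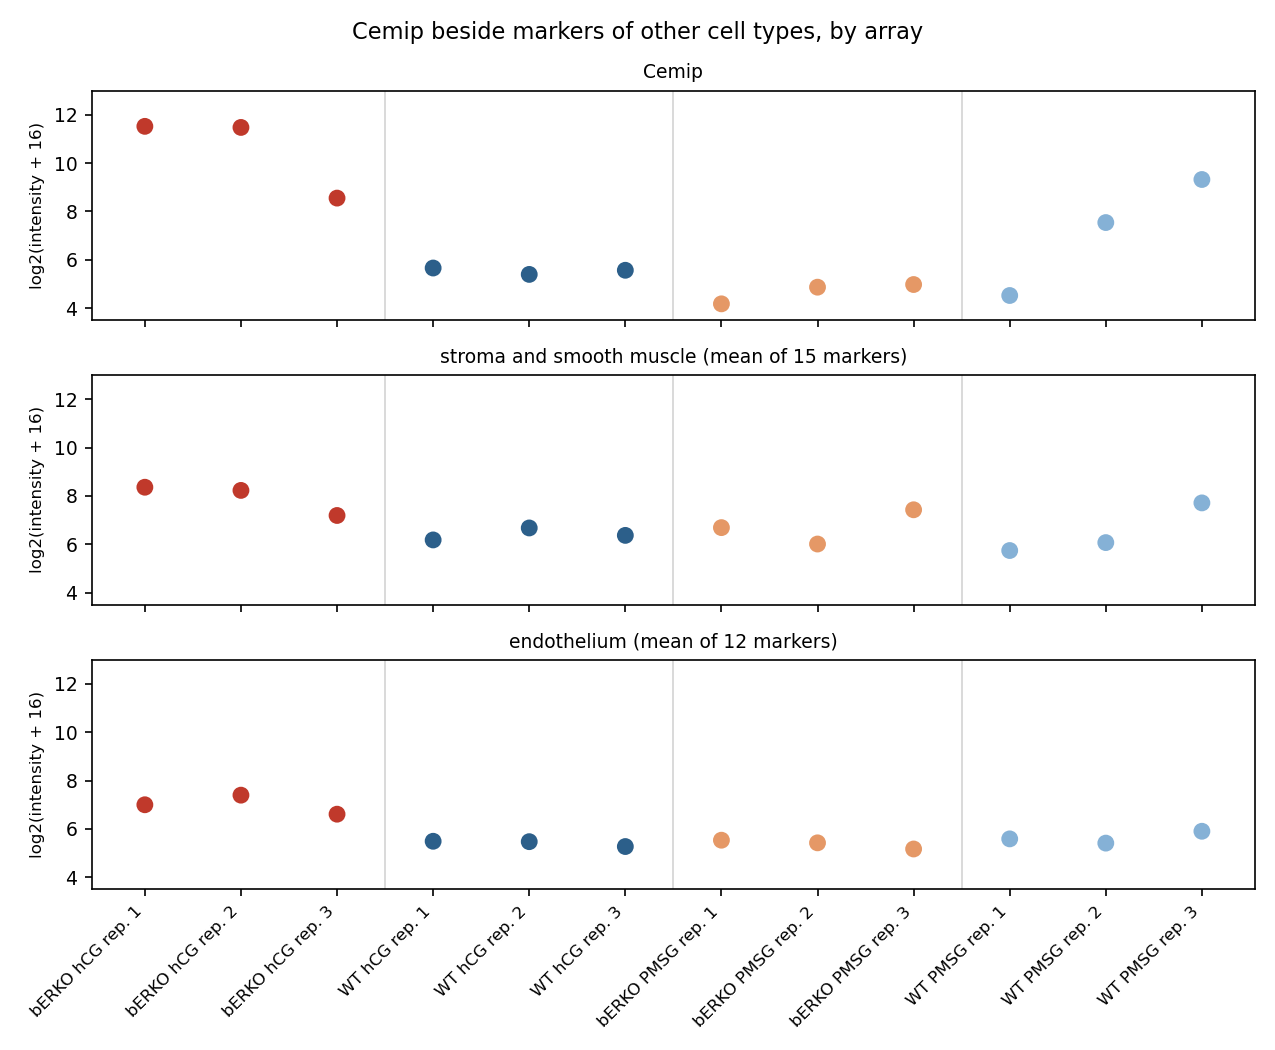
Cemip and the mean level of 15 stroma and smooth muscle markers and 12 endothelial markers (vertical axes, log2(intensity + 16)) on each of the 12 arrays (horizontal axis). Both bERKO hCG arrays with Cemip at 11.52 and 11.47 have stroma means above 8. The third has Cemip at 8.55 and a stroma mean of 7.19. On bERKO PMSG replicate 3 the stroma mean is 7.43 and Cemip is at 4.97, and over the WT hCG arrays the 2 orders are opposite.

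Beyond the 7 genes, 40 others of hyaluronan and matrix handling were listed and 39 were measured, Hyal1 not being analysed here. In bERKO 9 of the 39 rose and 3 fell with hCG, where 7.05% of all genes rose and 11.9% fell. In WT 2 rose and 1 fell, where 0.731% of all genes rose and 1.35% fell. The median change of the 39 was 0.20 in bERKO and 0.18 in WT, beside -0.19 and -0.08 over all genes.

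Among the synthases and sugar enzymes, Has1, another hyaluronan synthase, rose by 2.25 ± 0.50 with hCG in bERKO (limma adjusted p = 0.00936) and changed by 1.54 ± 0.50 in WT (adjusted p = 0.137). Its responses differed by 0.71, which limma did not call (adjusted p = 0.685), and after hCG bERKO minus WT was 0.15. Ugdh, which makes the UDP-glucuronic acid used in hyaluronan, rose by 1.19 ± 0.27 in bERKO (limma adjusted p = 0.0101) and by 1.23 ± 0.27 in WT (adjusted p = 0.0409). Uxs1, which turns UDP-glucuronic acid into UDP-xylose and so draws on the same sugar, fell by 1.93 ± 0.25 in bERKO (limma adjusted p = 0.000587) and by 1.33 ± 0.25 in WT (adjusted p = 0.0251). The Uxs1 probe sets disagreed: over the mean of all of them its changes were -0.40 and -0.10, neither called. The WT calls for Ugdh, Uxs1 and Adamts9 were each lost in 9 or more of 22 alternatives. Uap1, which makes UDP-N-acetylglucosamine, the other precursor, read 10.70, 10.54 and 10.90 in bERKO hCG arrays, against 8.10, 9.71 and 9.35 in WT hCG arrays. It was 1.66 ± 0.40 higher in bERKO (limma adjusted p = 0.0485), a call lost in 16 of 22 alternatives.

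Among proteases that cut versican, Adamts4 read 10.45, 11.26 and 10.41 on bERKO hCG arrays, against 5.77, 6.62 and 4.09 on bERKO PMSG arrays. In WT it read 5.95, 8.32 and 8.54 after hCG, against 8.12, 6.82 and 7.77 after PMSG. The bERKO hCG arrays were above all others, and the WT groups overlapped each other. The bERKO response of Adamts4 was 5.21 ± 0.74 (limma adjusted p = 0.000875), and it exceeded that of WT by 5.18 ± 1.04 (adjusted p = 0.0393), the one call of the 39 for that difference. After hCG Adamts4 was 3.10 ± 0.74 higher in bERKO than in WT (limma adjusted p = 0.047). The bERKO response of Adamts4 was called under all 22 alternatives, while its other calls were lost in 12 of 21 for the difference of responses and in 13 of 22 after hCG, without WT hCG replicate 1 among them (4.35 and 2.28). Adamts9 rose by 2.42 ± 0.37 in bERKO and 1.73 ± 0.37 in WT (limma adjusted p = 0.00128 and 0.0377). Adamts1 and Cemip2 also rose and Adamts5 also fell in bERKO.

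Of the inter-alpha-trypsin inhibitor chains, Itih5 read 8.23, 8.17 and 5.48 on bERKO hCG arrays, against 11.65, 10.88 and 10.64 on WT hCG arrays. Itih5 was lower in bERKO after hCG, with a bERKO minus WT difference of -3.76 ± 0.76 (limma adjusted p = 0.026), and fell by 3.90 ± 0.76 with hCG in bERKO (adjusted p = 0.00483). The bERKO hCG arrays were below all others, while the other 3 groups overlapped between 9.48 and 11.78. The call after hCG was lost in 6 of 22 alternatives, with differences down to -2.85 without bERKO hCG replicate 3. Itih2, which encodes a heavy chain carried on the serum inhibitor, rose by 1.97 ± 0.57 in bERKO (limma adjusted p = 0.0326). Its mean was 4.73 in bERKO PMSG against 6.72 in WT PMSG, and 6.69 in bERKO hCG against 7.41 in WT hCG. The hyaluronan receptors Lyve1 and Stab1 rose in bERKO too (limma adjusted p = 0.0476 and 0.0490). Both are also markers of lymphatic or sinusoidal endothelium and of macrophages. The calls for Itih2, Lyve1 and Stab1 were not recomputed under the alternatives. After PMSG alone 0 of the 39 were called between bERKO and WT by limma.

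**Figure D5:**
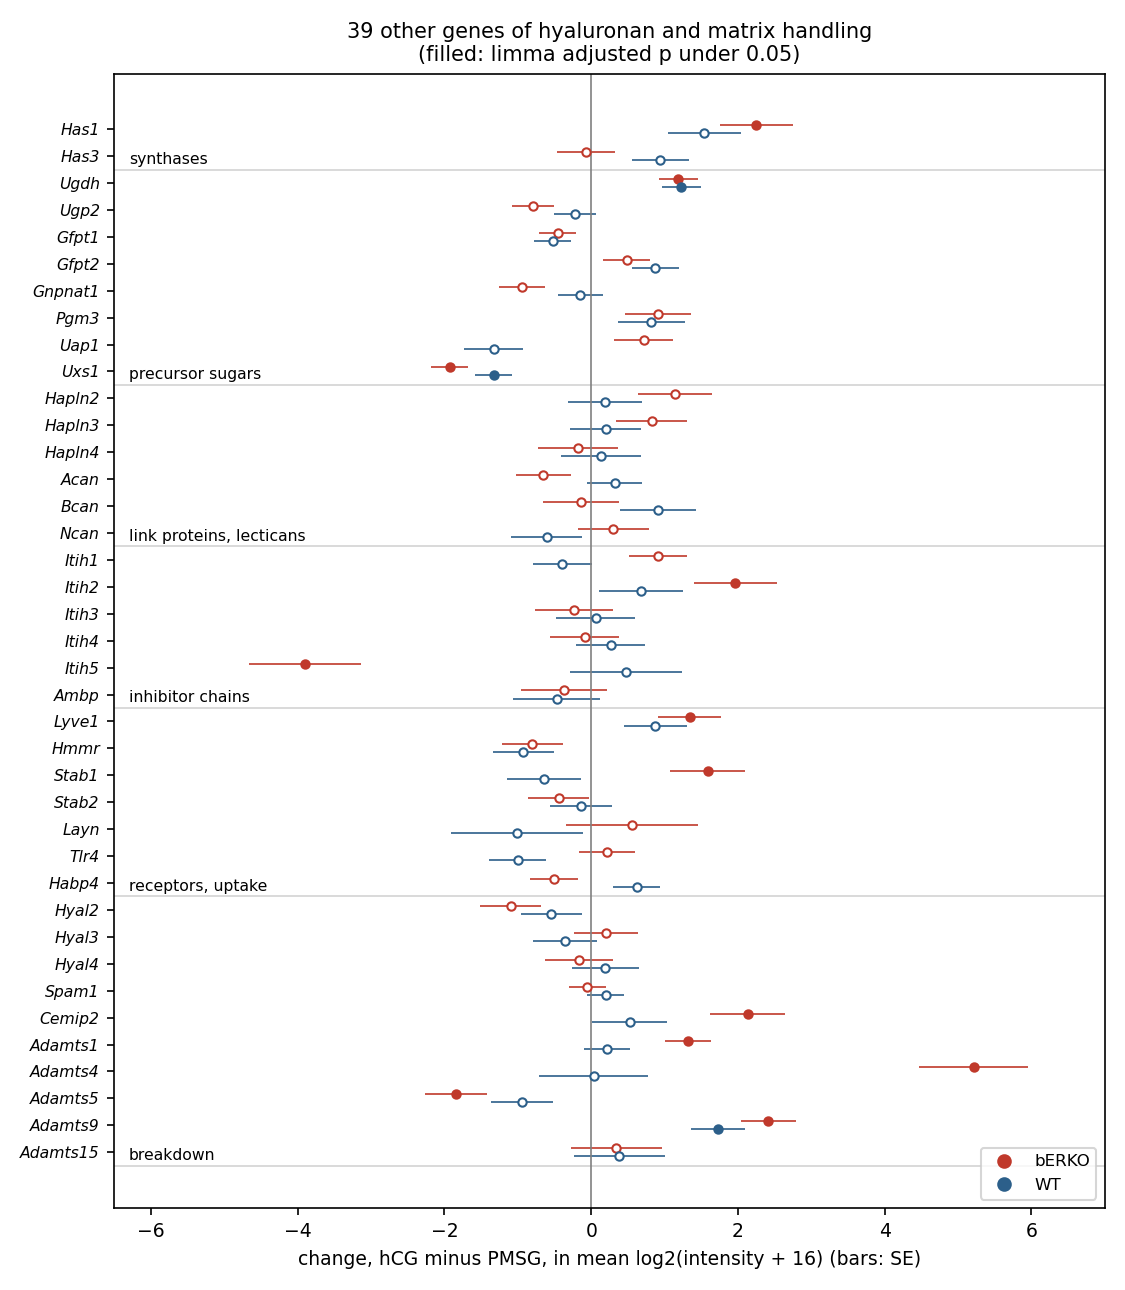
Change with hCG (horizontal axis, hCG minus PMSG in mean log2(intensity + 16)) of 39 other genes of hyaluronan and matrix handling in bERKO and WT, grouped by role; bars are SE and filled points have a limma adjusted p under 0.05. Adamts4 at 5.21 and Itih5 at -3.90 in bERKO lie farthest from 0, and 3 WT points are filled.

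Genes whose levels were most like those of the 7 over the 12 arrays are named as a description, since arrays of a group and the hCG treatment shared by 6 of them raise any such correlation. For Ptx3 they were Nts, Prkg2 and Sult1e1 (Pearson's r 0.99 each), for Tnfaip6 Egr3, Snap25 and Nts (0.98 each), and for Has2 Luzp1, Prep and Hey1 (0.99 each). For Vcan they were Rnf180, Sdcbp and Egr3 (0.99 each). Cemip was most like Lipg, Lrrn1 and Lhfp (0.96, 0.94 and 0.93) and Cd44 most like Gsta2, Basp1 and Tfrc (0.91 each). Hapln1 had the lowest best match, 0.90 with C130046K22Rik, followed by Rsbn1 and Ubl5. Among the 7 themselves, r was 0.93 to 0.97 for every pair of Has2, Tnfaip6, Ptx3 and Vcan, and 0.53 to 0.68 for Cemip with Has2, Tnfaip6, Ptx3, Vcan and Cd44.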

How the data were processed

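RNA from laser-captured granulosa cells was hybridised to 12 one-colour Affymetrix arrays. Per the labels' protocols, extraction used a PicoPure kit, amplification started from 25 ng (NuGEN Ovation Pico WTA) and biotin was added with the NuGEN Encore module. The deposited values are linear intensities, 1 per probe set, which the authors had scaled to a common 2% trimmed mean of 500, as computed from the values. The sources used here name no software for this step.

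After 64 control probe sets were left out, 45037 probe sets were quantile normalized on the linear scale, because array medians differed by 0.98 on the log2 scale (limit 0.5). They were then taken as log2(intensity + 16). Between 18.7% and 30.0% of deposited intensities on an array were below 16. Gene names came from GEO's platform annotation, in which 34945 probe sets named 1 gene, 932 several and 9160 were not listed. The brightest one-gene probe set stood for each of 18193 genes, and no dim gene was removed.

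Group means were fitted with limma 3.58.1 (R 4.3.3, statmod 1.5.0) over all 12 arrays with 1 spread per gene moderated by eBayes, 5 contrasts, and Benjamini-Hochberg adjustment within each contrast. The script was tested on simulated data with known changes. The number of arrays limits the precision. Genes named were the 7 genes and up to 6 others per contrast, by smallest p, that passed among 40 listed. The 7 genes were tested in every contrast, though not every value is given. Adamts1, Adamts5, Cemip2, Itih2, Lyve1 and Stab1 lie outside the rule for the others and were named after their values were seen. The 3 genes most alike each of the 7 were taken by Pearson's r among genes with a mean of at least 6. The members, gene lists and alternatives were chosen with earlier results of these data known. Alternatives were other scalings, offsets of 1 and 64, dim genes left out, the mean of all probe sets, the groups of a comparison alone, array weights, the replicate number as a block, each array left out, and both arrays with high Gapdh ratios left out; fitting every probe set by itself was added after seeing the data. Promoter bases are from a RefSeq table on GRCm38.p6, searched with Python 3.11.15. A search of protein sequences for the link module was planned and not run here. Array measurements were not split by batch, since the sources used here name none.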

Additional observations from a re-analysis of the deposited data

Results flagged for a closer look

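The hCG response of Cemip differed between the genotypes, with a change 7.43 greater in bERKO than in WT on the log2(intensity + 16) scale (SE 1.46, limma adjusted p = 0.0354). It drew attention because the test of the difference between the responses passed for this gene, on 1 of its 3 probe sets, and for none of the other 6 genes. That probe set was the brightest through its bERKO hCG values: over the other 9 arrays it averaged 5.78, against 6.43 for the next. Cemip was higher on every bERKO hCG array than on every bERKO PMSG array, and its mean in WT was 5.54 after hCG and 7.12 after PMSG. The other Cemip probe sets gave differences of 0.54 and 2.08, neither called.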

How the results depend on the processing

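The changes of the 7 genes in 5 comparisons were recomputed 788 times: 710 kept their direction and side of the threshold, 32 lost a call, 30 gained one and 16 changed sign. No called change was among those that changed sign. In bERKO 5 or 6 of the 7 genes were called for the hCG response under all 23 alternatives. In WT, where 0 were called, 2 were called with arrays centred on their medians, 2 of 5 with dim genes left out, 1 with the mean of all probe sets, 4 with array weights, 4 with both arrays of high Gapdh ratio left out, and 0 to 4 with each array left out (4 without WT hCG replicate 1). For the difference of responses 0 were called with an offset of 1, 0 with the replicate block, 0 without those 2 arrays, and 0 to 1 with each array left out. After hCG, bERKO minus WT gave 5 with arrays centred on their medians, 4 with an offset of 64 and 4 with array weights. It gave 1 with dim genes left out, 0 with an offset of 1 and 0 without those 2 arrays. With each array left out it gave 0 to 4 (0 without replicate 1 or 2 of either hCG group). Counts over all genes follow for part of these settings. For the rest no share of all genes is given, so those counts do not set the 7 genes apart from all genes.

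Of all genes, the WT response called 233 in the values as deposited, 140 and 870 with offsets of 1 and 64, 699 with dim genes left out, 31 with the 2 groups alone, 1598 with array weights, 148 with the replicate block, 835 without both arrays and 49 to 580 with each array left out, in place of 378. The bERKO response called 5864 of all probe sets fitted one by one (chosen after seeing the data), and 2302 to 3848 genes with each array left out, in place of 3447. The difference of responses called 95 and 454 with offsets of 1 and 64, 420 with array weights, 129 with the replicate block, 120 without both arrays and 81 to 408 with each array left out, in place of 239. After hCG the counts were 225 and 882 with offsets of 1 and 64, 219 with the 2 groups alone, 1239 with array weights, 259 without both arrays and 141 to 684 with each array left out, in place of 562. After PMSG they were 7 in the values as deposited, 5 with arrays centred on their medians, 0 and 12 with offsets of 1 and 64, 1 with the mean of all probe sets, 1 with the 2 groups alone, 7 without both arrays and 0 to 26 with each array left out, in place of 2.

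Changes near 0 turned sign without a call. The WT response of Hapln1 was 0.031 with the mean of all probe sets and -0.73 to 0.071 with each array left out, and that of Cd44 was -0.049 to 0.41 with each array left out. After PMSG, bERKO minus WT of Cd44 was 0.0028 in the values as deposited, 0.25 with arrays centred, 0.065 with an offset of 64, 0.32 with array weights, 0.65 without both arrays and -0.38 to 0.65 with each array left out. For Ptx3 it was -0.11 with the mean of all probe sets, -0.076 without both arrays and -0.12 to 0.38 with each array left out, and for Vcan 0.050 with arrays centred.

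The replicate numbers showed no pairing over the 4 groups as a whole. After group means were removed, 18 pairs of same-numbered arrays correlated between -0.10 and 0.19, and the own number was best in 7 of 36 cases. The 2 pairs over 0.1 were both between bERKO hCG and WT hCG (0.14 for replicate 1 and 0.19 for replicate 3). These correlations cannot show whether some of the arrays shared a batch. With the replicate block the difference of responses of Cemip had a limma adjusted p of 0.0671, and the range over all its alternatives was 0.0197 to 0.114. The cause of these shifts was not tested. With 3 arrays a group, and with groups near the floor for Ptx3, Hapln1 and Cemip, small changes were not detectable.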
